A study of Mus musculus with 6 samples.

Results

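The 10 junction and surface genes of endothelial cells examined here, Cdh5, Pecam1, Emcn, Cldn5, Esam, Jam2, Jam3, Tjp1, Mcam and Icam2, were followed through RNA-seq libraries of bone endothelial cells (BECs). The genes were given by name, by no threshold on measured values, and all 10 were found among the 37991 genes of the count table. The libraries came from mice aged 12 weeks, labelled c57/Bl6, 3 from females and 3 from males. The study's methods name the J substrain. The labels name no treatment and no engineered allele for either group. The labels give the tibia as the source and the study's methods tibiae and femurs. BECs had been purified through endomucin, the protein that Emcn encodes, so Emcn is also the gene behind the purification. The labels describe cells sorted straight into lysis buffer, and the study's methods describe magnetic beads coated with the antibody and then a choice of the 3 samples of each set with the best RNA. Whether a library holds 1 mouse or several was not given in the sources used here, so the spread between libraries may in part be technical. Total counts lay between 47678806 and 58325745 per library.

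Neighbouring endothelial cells are held together by adherens junctions, built on VE-cadherin, and by tight junctions, built on claudins and the JAM proteins and tied to the cytoskeleton by scaffold proteins. In bone, vessels are typed by 2 surface proteins, CD31 (the product of Pecam1) and endomucin: vessels rich in both, called type H, lie near the growth plate and accompany bone formation, and vessels with less of both are the sinusoids of the marrow. The genes differ in how closely they keep to endothelium. VE-cadherin and claudin-5 are nearly confined to it, whereas CD31 is also carried by platelets and many leukocytes, ICAM-2 by lymphocytes and platelets, MCAM by pericytes and stromal cells, and ZO-1 by most cells with junctions.

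The labelled cell type was checked against its markers first. Each of the 10 genes was detected in every library, and so was each of 13 other endothelial genes set as a reference list (Kdr, Flt1, Flt4, Tek, Tie1, Robo4, Plvap, Stab2, Clec14a, Ecscr, Sox17, Sox18 and Erg). Together the 10 genes held between 182 and 238 CPM in females and between 145 and 170 CPM in males, where CPM is the count scaled to a library of 1e6 counts after TMM normalization. Markers of other marrow cells were present as well, and some of them took far more of the counts: the 12 neutrophil markers together held between 18720 and 22870 CPM in females and between 31720 and 43600 CPM in males. The 10 macrophage and monocyte markers held between 5249 and 5517 CPM in females and between 3592 and 4736 CPM in males, and neither of these sums overlapped between the sexes. The 10 erythroid markers likewise held between 12240 and 17550 CPM in females and between 18540 and 27240 CPM in males. The 10 mural and stromal markers held between 1392 and 2881 CPM in females and between 1198 and 2305 CPM in males, the 8 megakaryocyte and platelet markers between 58.7 and 216 and between 47.1 and 107, the 7 measured B cell markers between 2795 and 3206 and between 2812 and 3242, and the 8 T and NK cell markers between 82.1 and 96.2 and between 71.0 and 86.0. No marker in these lists was at 0 in any library. Male replicate 3 lay apart on the second principal component of the 500 most variable genes, at -23.0 against values between 0.555 and 8.03 in the other 5 libraries.

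Promoter sequence was held for 4 of the 10 genes. Those of Emcn and Cldn5 are shown because these genes followed Cdh5 across the libraries, as described further on. They are the 250 bases before the annotated start, 5′ to 3′ on the gene's strand, from RefSeq on GRCm38.p6, Emcn at chr3:137340828-137341077 and Cldn5 at chr16:18776597-18776846, both on the plus strand. Capitals mark CGGAAG and AGGAAG on either strand, 2 spellings of the site bound by ETS factors, a family that includes regulators of many endothelial genes.

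Emcn: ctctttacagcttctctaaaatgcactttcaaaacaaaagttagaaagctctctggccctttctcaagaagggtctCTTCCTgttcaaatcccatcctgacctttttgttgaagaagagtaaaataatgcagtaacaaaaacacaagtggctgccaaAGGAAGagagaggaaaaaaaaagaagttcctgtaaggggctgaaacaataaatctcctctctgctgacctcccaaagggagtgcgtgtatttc
Cldn5: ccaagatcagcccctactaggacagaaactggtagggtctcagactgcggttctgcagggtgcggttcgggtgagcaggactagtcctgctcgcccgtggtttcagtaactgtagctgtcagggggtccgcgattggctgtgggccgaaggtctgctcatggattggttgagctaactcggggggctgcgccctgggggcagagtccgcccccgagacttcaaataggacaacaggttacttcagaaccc

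The Emcn window holds AGGAAG at 2 places, beginning 174 bases (minus strand) and 93 bases (plus strand) before the start. The Cldn5 window holds neither spelling and has GGGCGG, the core of the site of SP1, beginning 45 bases before the start on the minus strand. At least 1 of the ETS spellings occurs in 39.2% of all 32851 windows of this length, and GGGCGG in 32.7%. None of the 4 windows holds TATAAA, which 12.4% of windows do. Of the other windows, that of Tjp1 holds CGGAAG, beginning 99 bases before its start on the minus strand, and that of Mcam holds neither ETS spelling. G and C make up 40.8% of the Emcn window and 59.6% of the Cldn5 window.

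To set genes side by side, CPM was divided by the length in kilobases of the canonical transcript of each gene (RPKM). On this per-length scale, Pecam1 was the most abundant member in every library, with a mean level of 23.2 ± 3.21 RPKM (SD, n = 6). Cldn5 followed with 8.75 ± 5.49, Icam2 with 5.30 ± 0.494, Cdh5 with 4.76 ± 2.60 and Esam with 4.15 ± 2.35 RPKM (SD, n = 6). This order of means over both sexes did not hold within each sex: in females Cdh5 (6.59 ± 2.32) and Esam (5.73 ± 2.43) had higher means than Icam2 (5.35 ± 0.759 RPKM, SD, n = 3), and in males Cdh5 (2.92 ± 1.22) and Esam (2.58 ± 0.679) had lower means than Icam2 (5.24 ± 0.162 RPKM, SD, n = 3). Cldn5 and Icam2 changed places between libraries, Cldn5 being higher in 4 of 6, as did Icam2 and Cdh5 (4 of 6) and Cdh5 and Esam (5 of 6). Emcn (2.45 ± 1.07), Mcam (2.02 ± 0.534) and Tjp1 (1.71 ± 0.560 RPKM, SD, n = 6) formed the next set, again with no fixed order between neighbours. Jam3 (0.398 ± 0.137) and Jam2 (0.267 ± 0.0573 RPKM, SD, n = 6) were lowest and stood in this order in all 6 libraries. With the length of all annotated exons instead, Cldn5 came before Pecam1 over both sexes and in females (12.1 and 9.22 RPKM). This did not hold in males (5.35 and 7.86 RPKM). Emcn then came after Mcam and Tjp1. The order thus depended on the length used, and which transcripts the cells make was not measured.

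**Figure D1:**
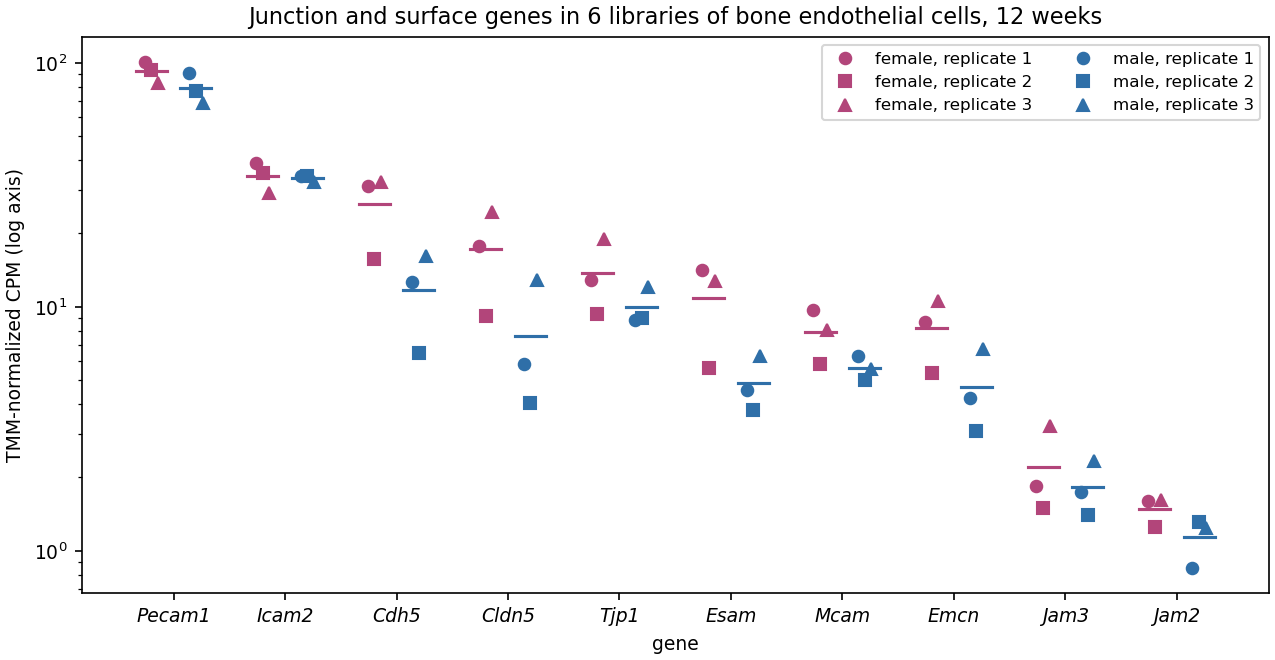
Level of each of the 10 genes in each library. The y axis is TMM-normalized CPM on a log scale, points are single libraries with females to the left and males to the right, and horizontal bars are the means of 3 libraries. The sexes overlap for every gene, and female replicate 2 (square) is the lowest female library for 8 of the 10 genes.

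The comparison of the sexes asks whether bone endothelium differs between females and males at 12 weeks. All 10 genes had a lower fitted level in males, against 50.2% of the 19480 genes tested. The size of the difference parted the genes: Cdh5, Cldn5 and Esam had less than 0.5 times the female mean in males, Emcn had 0.571 times, and Pecam1 and Icam2 had 0.852 and 0.981 times. None of the 10 passed the threshold of 0.05 on the adjusted p of edgeR (a quasi-likelihood test), where 0.0154% of all genes tested were called lower in males. At an unadjusted p under 0.05 in the same test, 4 of the 10 were lower in males, namely Cdh5, Cldn5, Esam and Emcn, where 4.76% of all genes were. DESeq2's Wald test, the tool named in the study's methods, called 2 of the 10 lower in males at an adjusted p under 0.05, Cdh5 and Esam, where it called 0.771% of the 17252 genes to which it gave an adjusted p lower in males. For none of the 10 were the sexes free of overlap, where all 3 males lay below all 3 females for 7.29% of genes tested. In libraries from a mixed suspension, fewer cells of a type and less RNA per cell cannot be told apart.

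Adherens junctions come first. Cdh5 (ENSMUSG00000031871, chromosome 8 of GRCm39, 104828231 to 104871143) encodes VE-cadherin, the cadherin that joins endothelial cells. It had 31.2, 15.8 and 32.6 CPM in female replicates 1, 2 and 3 and 12.6, 6.50 and 16.2 CPM in male replicates 1, 2 and 3. Female replicates 1 and 3 lay well above every male, and female replicate 2 lay just under male replicate 3. The log2 fold change of males over females was -1.17 (SE, the standard error, 0.360, edgeR adjusted p = 0.336, DESeq2 adjusted p = 0.0134). Leaving out each library in turn kept it between -1.47 and -0.88.

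Among the tight junction genes, Cldn5 (ENSMUSG00000041378, chromosome 16, 18595597 to 18597012) encodes claudin-5, the strand-forming claudin of endothelium. It had 17.8, 9.18 and 24.6 CPM in the females and 5.81, 4.02 and 12.9 CPM in the males. It was the most variable of the 10 genes, the highest library having 6.12 times the lowest, and male replicate 3 exceeded female replicate 2. Its log2 fold change was -1.18 (SE 0.466, edgeR adjusted p = 0.454), and it lay between -1.81 without male replicate 3 and -0.84 without female replicate 3. Without female replicate 3 its adjusted p from edgeR was 0.818.

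Esam (ENSMUSG00000001946, chromosome 9, 37439344 to 37449615) encodes an adhesion molecule of endothelial tight junctions that platelets and blood stem cells also carry. It had 14.2, 5.60 and 12.8 CPM in the females and 4.56, 3.80 and 6.30 CPM in the males. Female replicates 1 and 3 held more than 2 times the level of any male. The log2 fold change was -1.15 (SE 0.336, edgeR adjusted p = 0.288, DESeq2 adjusted p = 0.0224), the smallest adjusted p of the 10 genes in edgeR's test.

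Emcn (ENSMUSG00000054690, chromosome 3, 137046794 to 137138999) encodes endomucin, a sialomucin of capillaries and veins. It had 8.68, 5.35 and 10.5 CPM in the females and 4.21, 3.09 and 6.72 CPM in the males. Here too female replicate 2 lay within the range of the males. The log2 fold change was -0.81 (SE 0.327, edgeR adjusted p = 0.450).

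Pecam1 (ENSMUSG00000020717, chromosome 11, 106543689 to 106641454) encodes CD31, which binds to itself between neighbouring cells. It had 101, 93.1 and 82.6 CPM in the females and 90.6, 76.6 and 68.5 CPM in the males. These values spanned only 1.47-fold, and male replicate 1 lay above female replicate 3. The log2 fold change was -0.23 (SE 0.135, edgeR adjusted p = 0.614), and it lay between -0.35 without male replicate 1 and -0.14 without male replicate 3. Of the 2 genes that type bone vessels, Emcn was thus the lower and the more variable. On the per-length scale the ratio of Emcn to Pecam1 was 0.121, 0.0806 and 0.179 in the females and 0.0652, 0.0565 and 0.138 in the males, so that male replicate 3 lay above female replicates 1 and 2.

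Icam2 (ENSMUSG00000001029, chromosome 11, 106263312 to 106278943) encodes a ligand that leukocytes bind when they adhere to endothelium. It had 38.95, 35.3 and 29.2 CPM in the females and 34.4, 34.5 and 32.6 CPM in the males, so that all 3 males lay inside the female range. Its log2 fold change was -0.03 (SE 0.131, edgeR adjusted p = 0.965), and it was 0.080 without female replicate 1.

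Mcam (ENSMUSG00000032135, chromosome 9, 44045504 to 44054025) encodes CD146, an adhesion molecule of endothelial cells, pericytes and marrow stroma. It had 9.72, 5.83 and 8.03 CPM in the females and 6.28, 4.99 and 5.59 CPM in the males. Female replicate 2 was below male replicate 1, and the log2 fold change was -0.48 (SE 0.231, edgeR adjusted p = 0.533), or -0.29 without female replicate 1. Tjp1 (ENSMUSG00000030516, chromosome 7, 64945898 to 65177529) encodes ZO-1, the scaffold that links tight junctions to actin. It had 12.8, 9.35 and 19.0 CPM in the females and 8.85, 8.97 and 12.1 CPM in the males. Its log2 fold change of -0.46 (SE 0.253, edgeR adjusted p = 0.596) leaned on female replicate 3, without which it was -0.16.

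The JAM genes were at the low end. Jam2 (ENSMUSG00000053062, chromosome 16, 84570764 to 84623269) and Jam3 (ENSMUSG00000031990, chromosome 9, 27005652 to 27066915) encode immunoglobulin-like proteins that bind each other across tight junctions. Jam2 had between 1.25 and 1.62 CPM in the females and between 0.854 and 1.32 CPM in the males, from counts of 45 to 101 per library. Jam3 had 1.84, 1.495 and 3.26 CPM in the females and 1.75, 1.40 and 2.34 CPM in the males. Their log2 fold changes were -0.39 (SE 0.337, edgeR adjusted p = 0.754) and -0.26 (SE 0.368, edgeR adjusted p = 0.856), that of Jam2 was -0.22 without male replicate 1, and that of Jam3 was 0.13 without female replicate 3. Exons of Jam2, Jam3 and Icam2 overlap exons of Atp5pf, Ncapd3 and Prr29 on the other strand in the GENCODE M39 annotation, and exons of Cdh5, Mcam and Jam3 overlap exons of the long non-coding genes Gm64067, Gm10687 and Gm48796, not analysed here, on the other strand. Reads of such partners can be told apart only if strand was used in the counting, which was not given in the sources used here.

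**Figure D2:**
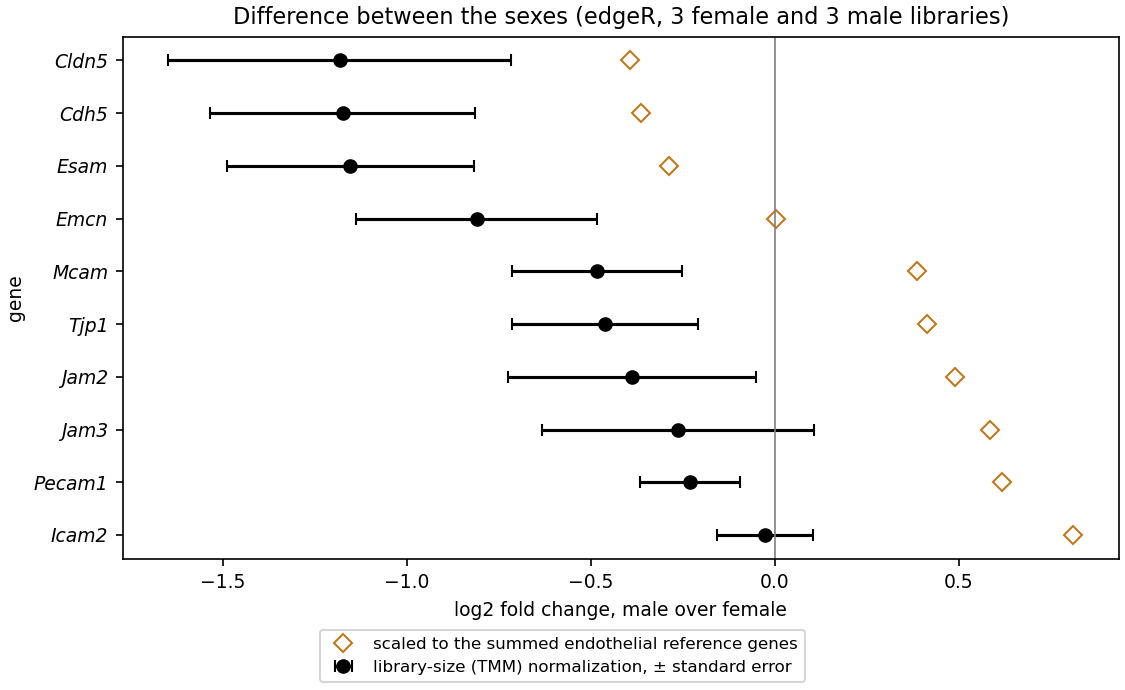
Log2 fold change of males over females for each gene. Filled points with bars are the edgeR estimates with library-size normalization and their standard errors, and open diamonds are the estimates when each library is scaled to the summed counts of 13 other endothelial genes. Cdh5, Cldn5 and Esam lie below 0 on both scales, and the diamonds of the other 7 genes lie at or above 0, that of Emcn at 0.0025.

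For 7 of the 10 genes the overlap was a crossing of female replicate 2 with 1 male library. Leaving out either of these libraries removed the overlap, and which of them was unusual was not tested. Female replicate 2 was the lowest female library for 8 of the 10 genes, Pecam1 and Icam2 being the others. It lay within or below the range of the males for the same number. Without it, all males lay below both remaining females for 7 of the 10 genes (Cdh5, Emcn, Cldn5, Esam, Jam2, Tjp1 and Mcam), where 12.7% of genes tested did, and still none of the 10 passed an adjusted p of 0.05 in edgeR's test. Without male replicate 3 this held for 5 of the 10 (Cdh5, Emcn, Cldn5, Esam and Tjp1), where 16.8% of genes did. Without female replicate 3 or without male replicate 1 it held for 2 of the 10 (Pecam1 with Icam2, and Pecam1 with Mcam), where 11.7% and 13.7% of genes did, without male replicate 2 for 1 (Jam2; 9.35%), and without female replicate 1 for none, where 13.8% did.

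The genes also differed in how closely their levels over the libraries followed those of Cdh5. Likeness was measured as the root mean square difference over the 6 libraries between log2(CPM + 0.5) values, each gene centred on its own mean, and is given as a description. It takes in the difference between the sexes and the size of the swings as well as the order of the libraries. Among 16101 genes with a mean of at least 1 CPM, Esam was the 50th nearest to Cdh5, Cldn5 the 54th and Emcn the 69th, at differences of 0.244, 0.250 and 0.265. Tjp1, which had the same order of the females as Cdh5 and was also highest in male replicate 3 among the males, but with smaller swings, came 638th, Mcam 663rd, Jam3 1087th and Jam2 2314th. Pecam1 was 3965th and Icam2 8226th, at 0.711 and 0.788. Cdh5, Cldn5, Esam and Emcn were high in female replicates 1 and 3, intermediate in female replicate 2 and male replicate 3, and lowest in male replicate 2.

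The 5 genes most like Cdh5 were Tek, Adgrg6, Nid2, Aplnr and Eng, at differences between 0.0698 and 0.0932. Tek encodes the receptor of angiopoietins, Aplnr the apelin receptor, Eng endoglin, a co-receptor of TGF-beta family ligands, Nid2 a protein of basement membranes and Adgrg6 an adhesion-type receptor. Tek, for example, had 11.4, 5.24 and 11.6 CPM in the females and 3.89, 2.03 and 4.93 CPM in the males, the same order of libraries within each sex as Cdh5. The 5 genes most like Pecam1 were Lsm14b, Gbf1, Ddx19b, Elac2 and Pofut1, at differences between 0.0124 and 0.0394, genes of RNA handling, membrane traffic and protein glycosylation that most cells use. Genes with little variation lie close to one another on this measure. Pecam1 ranked 5051st and Icam2 479th in likeness to Ptprc, which encodes the pan-leukocyte surface protein CD45, and Cdh5 ranked 15967th. Ptprc itself had 577, 563 and 475 CPM in the females and 613, 588 and 530 CPM in the males. Relative to Ptprc, however, Pecam1 CPM was 0.175, 0.165 and 0.174 in the females and 0.148, 0.130 and 0.129 in the males, so this ratio did not overlap between the sexes.

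**Figure D3:**
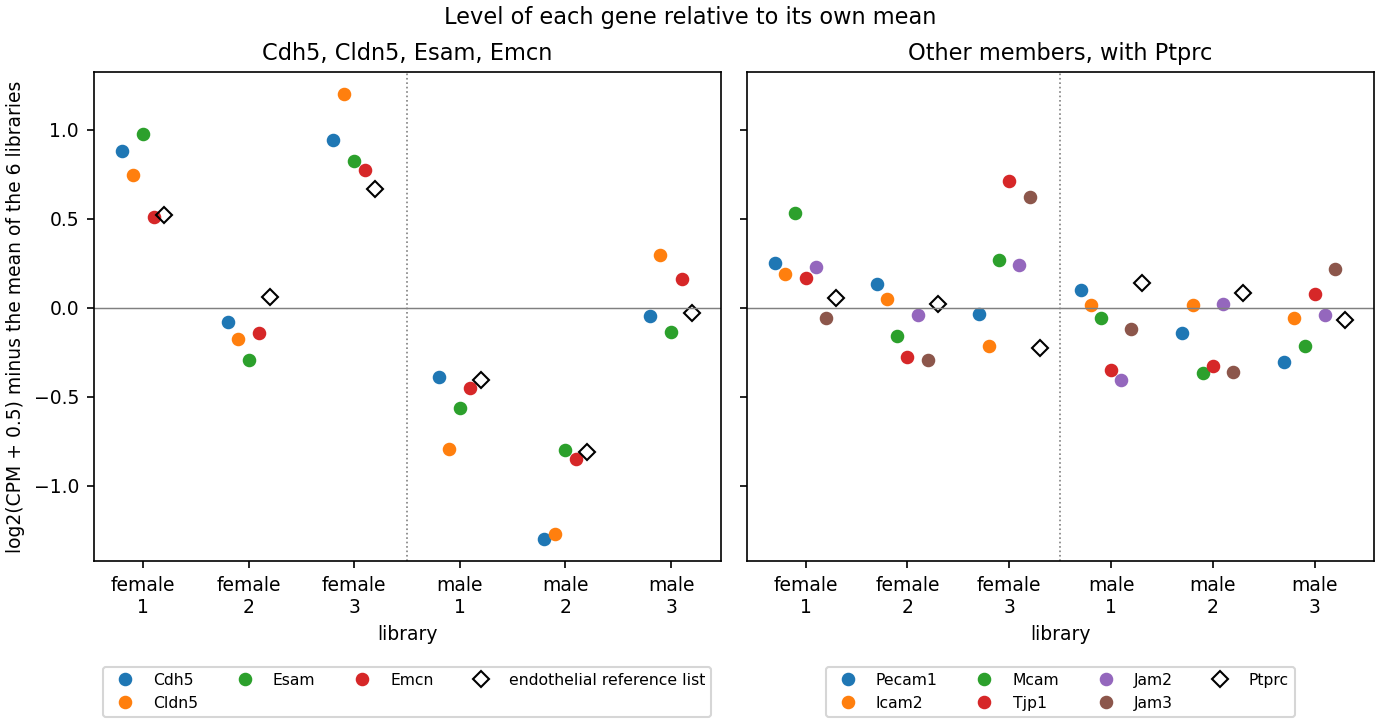
Level of each gene in each library relative to the gene's own mean, on the log2(CPM + 0.5) scale. The left panel shows Cdh5, Cldn5, Esam and Emcn with the summed endothelial reference list (diamonds), and the right panel the other 6 genes with Ptprc (diamonds). On the left the libraries spread over more than 2 log2 units for Cdh5 and Cldn5, and on the right Pecam1 and Icam2 stay within 0.55 and 0.41 units.

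The ratio of Pecam1 to Cdh5 varied from library to library. On the per-length scale it was 3.53, 6.45 and 2.77 in the females and 7.84, 12.9 and 4.64 in the males, overlapping through female replicate 2 and male replicate 3. The ratio of Icam2 to Cdh5 was 0.778, 1.39 and 0.560 in the females and 1.70, 3.31 and 1.26 in the males. The ratio of Cldn5 to Cdh5 was 1.80 ± 0.293 (SD, n = 3) in the females, compared with 1.78 ± 0.482 (SD, n = 3) in males, and that of Esam to Cdh5 was 0.851 ± 0.108 (SD, n = 3) and 0.944 ± 0.258 (SD, n = 3). The ratio of Emcn to Cdh5 was 0.481 ± 0.0485 (SD, n = 3) in the females and 0.626 ± 0.109 (SD, n = 3) in the males, with overlap.

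The reference list of 13 other endothelial genes gave a second scale for the same question. Its summed level was 324, 235 and 359 CPM in the females and 170, 129 and 222 CPM in the males, without overlap. Gene by gene, 9 of the 13 overlapped between the sexes. Stab2 was the largest part of the sum, with 106, 116 and 124 CPM in the females and 74.2, 54.7 and 84.9 CPM in the males. Its order within the females was not that of Cdh5, so the lack of overlap in the sum leans on this gene. None of the 10 members is in this list, so their levels are given as a percent of its sum and not as a part of it. Cdh5 was 9.62%, 6.71% and 9.07% in the females and 7.42%, 5.04% and 7.29% in the males. Emcn was 2.63 ± 0.333% (SD, n = 3) of the sum in females and 2.63 ± 0.349% (SD, n = 3) in males. Pecam1 was 31.1%, 39.6% and 23.0% in the females and 53.2%, 59.4% and 30.9% in the males. With libraries scaled to the reference list in edgeR's test, the log2 fold change was -0.36 for Cdh5, -0.39 for Cldn5 and -0.29 for Esam, while it was 0.0025 for Emcn, 0.62 for Pecam1 and 0.81 for Icam2, and none of the 10 passed an adjusted p of 0.05. On this scale the median over all genes tested moved from -0.0013 to 0.84, so Pecam1 lay below and Icam2 near that median on both scales. Since the scaling moves every gene up by a like amount, the sign of the other 7 genes turned with it, and Cdh5, Cldn5 and Esam kept theirs because their log2 fold changes were the lowest of the 10.

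The markers of other cells moved along with these genes in part. The mural and stromal markers summed to 2756, 1392 and 2881 CPM in the females and 1769, 1198 and 2305 CPM in the males, in the same order of libraries within each sex as Cdh5, but with overlap between the sexes. Cxcl12 alone made up most of this sum, with 2214, 1090 and 2350 CPM in the females and 1352, 928 and 1924 CPM in the males. Gene by gene, 8 of these 10 markers had a lower fitted level in males, 9 overlapped between the sexes, Acta2 was higher in each male than in any female, and markers such as Rgs5 and Col1a1 did not keep the order of Cdh5. The megakaryocyte and platelet markers, at 216, 58.7 and 129 CPM in the females and 91.0, 47.1 and 107 CPM in the males, were also lowest in replicate 2 of each sex. The neutrophil and erythroid markers had higher sums in each male than in any female, and the macrophage and monocyte markers lower sums. Gene by gene, 9 of the 12 neutrophil markers and 4 of the 10 erythroid markers (the 4 globin genes) were higher in males without overlap, as were 1412 of all 19480 genes tested. Mpo among the neutrophil markers and Epor and Tfrc among the erythroid markers had lower means in males. Of the 10 macrophage and monocyte markers, 7 were lower in males without overlap (7.29% of all genes) and 1, Ly6c2, was higher. The marker genes named here were picked after their values were seen. Their part in the differences of the 10 genes was not tested.

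Genes whose proteins work with the members at junctions were read from a list of 24. All 24 were tested, 20 had a lower and 4 a higher fitted level in males, and none was called in edgeR's test. The median log2 fold change of the list was -0.33, against -0.0013 over all genes tested and -0.47 over the 10 members. At an unadjusted p under 0.05, 5 of the 24 were lower in males, where 4.76% of all genes were. Jup, Ctnnd1, Ptprb and Cgnl1 were chosen by a call in an alternative fit, under the naming rule given with the processing. Jup, which encodes plakoglobin, had 114 ± 6.36 CPM (SD, n = 3) in the females, compared with 81.6 ± 7.37 (SD, n = 3) in the males without overlap, a log2 fold change of -0.48 (edgeR adjusted p = 0.198, DESeq2 adjusted p = 0.0388). Ctnnd1, which encodes p120-catenin, a protein that holds VE-cadherin at the membrane, had 69.8 ± 9.81 and 46.4 ± 7.06 CPM (SD, n = 3), also without overlap, a log2 fold change of -0.59 (edgeR adjusted p = 0.219, DESeq2 adjusted p = 0.0370). Both catenins are made by many cell types. Ptprb, which encodes VE-PTP, the phosphatase that associates with VE-cadherin, had 11.5 ± 4.92 and 4.88 ± 1.62 CPM (SD, n = 3), a log2 fold change of -1.24 (edgeR adjusted p = 0.288, DESeq2 adjusted p = 0.0174). Cgnl1, which encodes the junction scaffold paracingulin, had 9.94 ± 3.31 and 5.66 ± 1.67 CPM (SD, n = 3) without overlap (edgeR adjusted p = 0.400). Ctnnb1, which encodes beta-catenin and was picked after its values were seen as the gene of the list with the most counts, had 305 ± 26.8 and 261 ± 23.8 CPM (SD, n = 3), a log2 fold change of -0.22.

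**Figure D4:**
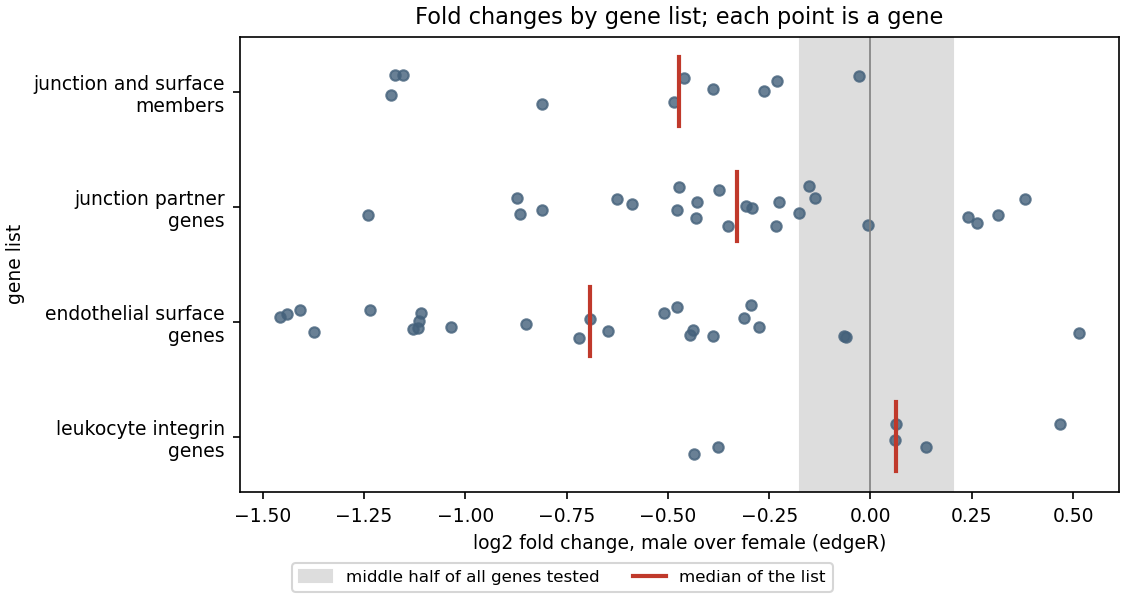
Log2 fold changes of males over females, from edgeR with library-size normalization, for the 10 members and 3 lists of related genes. Each point is a gene, red lines are the medians of the lists, and the grey band spans the quartiles of all genes tested, from -0.18 to 0.20. The medians are -0.47 for the members, -0.33 for junction partners, -0.69 for endothelial surface genes and 0.06 for leukocyte integrins.

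A list of 25 other endothelial surface genes, of which 10 also belong to the reference list, had a median log2 fold change of -0.69. Of these, 24 had a lower fitted level in males, 18 were lower at an unadjusted p under 0.05 (4.76% of all genes), 11 did not overlap between the sexes in that direction (7.29% of all genes), and none was called in edgeR's test. Kdr, which encodes the main VEGF receptor, had 26.3 ± 11.3 and 9.92 ± 5.37 CPM (SD, n = 3), a log2 fold change of -1.41 (edgeR adjusted p = 0.356), close to that of Cdh5 and likewise with overlap. Flt4 (-1.44), Tek (-1.37), Eng (-1.24), Plvap (-1.13), Robo4 (-1.12), Clec14a (-1.11) and Sele (-1.46) had log2 fold changes of like size, Stab2 (-0.69) and Nrp1 (-0.51) smaller ones. Leaving out single libraries kept each of these below 0 but moved their size. Sele then lay between -2.24 and -1.12, and Clec14a between -1.68 and -0.82. DESeq2 called 4 of the 25, all lower in males (0.771% of the genes to which it gave an adjusted p). Kdr and the other genes named above were chosen by a call in an alternative fit, under the naming rule given with the processing. All of those calls were lower in males. Of genes picked after their values were seen, Acvrl1 and Cd93, with log2 fold changes of -0.07 and -0.06, and Lyve1, with 0.51, departed from the rest. Leaving out single libraries put Acvrl1 between -0.10 and -0.04, Cd93 between -0.28 and 0.13 and Lyve1 between 0.23 and 0.72. Vcam1, which marrow macrophages and stromal cells also make and which was picked after its values were seen as the gene with the most counts, had 1148 ± 112 and 877 ± 113 CPM (SD, n = 3).

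Leukocytes bind several of the members through integrins: Itgal with Itgb2 binds ICAM-2, Itga4 with Itgb1 binds JAM-B, the product of Jam2, and Itgam with Itgb2 binds JAM-C, the product of Jam3. With Itgax these make a list of 6 genes, none of which was called in edgeR's test. Itgam had 190 ± 25.1 CPM (SD, n = 3) in the females, compared with 262 ± 27.6 (SD, n = 3) in males without overlap, a log2 fold change of 0.47 (edgeR adjusted p = 0.305). Itgb1 went the other way, with 153 ± 13.9 and 113 ± 12.7 CPM (SD, n = 3) and a log2 fold change of -0.43 (edgeR adjusted p = 0.298), as did Itgax with -0.38. Itgb2, Itgal and Itga4 had log2 fold changes of 0.14, 0.06 and 0.06. Leaving out single libraries put Itgb2 between 0.07 and 0.17, Itgal between -0.02 and 0.12 and Itga4 between -0.09 and 0.24.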

How the data were processed

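RNA-seq was made from endomucin-purified bone endothelial cells of 3 female and 3 male libraries. The authors deposited raw read counts per Ensembl gene, 37991 genes by 6 libraries, and these were used as deposited. The sources differ on how the counts were made: the submitters' processing notes name TopHat2 2.0.11, featureCounts and the mm9 (NCBIM37) build, whereas the study's methods name STAR, featureCounts and GRCm39. The labels describe polyadenylated RNA and the methods a total RNA kit. A total RNA library also holds unspliced RNA, and a build or annotation that differs can move reads between overlapping genes. The annotation release was not given in the sources used here, and 31073 of the gene identifiers matched GENCODE M39 (GRCm39), from which coordinates and lengths were taken. Total counts were 47678806 to 58325745, and no 2 libraries agreed within sampling noise (chi-square per degree of freedom at least 31.5 over 15 pairs).

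The main test was edgeR 4.0.16 in R 4.3.3, with TMM normalization, its filter on low counts, robust quasi-likelihood fits of males over females and Benjamini-Hochberg adjustment over 19480 genes, called at an adjusted p of 0.05. All 10 members passed the filter. Adjusted p-values are from this test unless DESeq2 (1.42.0) is named. The fit was also run on simulated counts with known changes, and the outcome is not reported here. Alternatives were a replicate block, other size factors, total counts, scaling to a list of 13 endothelial genes, no or a stricter filter (at least 10 counts in every library), DESeq2, no robust estimation, and leaving out each library.

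The members and all lists were chosen with earlier results of these data known. The text names all 10 members. Of the junction partner and surface lists it names every gene called at an adjusted p of 0.05 without or with the block, and it names every leukocyte integrin, Ptprc and the 5 genes most like Cdh5 and like Pecam1 among those with a mean of at least 1 CPM (pseudocount 0.5). Genes outside this rule are marked as such. Nothing in the labels says that libraries came from separate animals, so p-values measure only the spread between these libraries. Promoter sequences are from RefSeq.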

Additional observations from a re-analysis of the deposited data

How the results depend on the processing

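With edgeR's quasi-likelihood test none of the 10 members was called. This count was also 0 with DESeq2's size factors, total counts, no or a stricter filter on low counts, no robust estimation, scaling to the endothelial reference list and without any single library, and it was 2 with DESeq2 (Cdh5 and Esam). The count for junction partners, 0 in the main test, was 3 with DESeq2 and 3 (higher in males) under reference scaling. The count for surface genes, also 0, was 4 with DESeq2 (lower in males), 1 under reference scaling (higher in males), and 0 to 1 when libraries were left out (1 without male replicate 3). Reference scaling moved every gene up by a like amount: the median log2 fold change moved from -0.0013 to 0.84 over all genes, of which 5639 of 19480 were called (19 lower and 5620 higher in males), from -0.47 to 0.40 for the members, from -0.33 to 0.48 for junction partners and from -0.69 to 0.11 for surface genes. With that shift the sign turned for Pecam1 (0.62), Emcn (0.0025), Jam2 (0.49), Jam3 (0.58), Tjp1 (0.41), Mcam (0.39) and Icam2 (0.81). Among the members, leaving out a library turned the sign of Jam3 (range -0.48 to 0.13) and Icam2 (-0.13 to 0.080). The cause of the turns without a library was not tested. The labels give both sexes replicate numbers 1 to 3. Deviations of same-numbered libraries correlated at 0.0613 to 0.361, and 5 of 6 libraries correlated best with their own number, a hint from the data and not the design. With a replicate block, 3 members were called (Cdh5, Cldn5 and Esam), 4 junction partners and 10 surface genes, all lower in males. Over all genes the block called 428 genes (207 lower and 221 higher in males), DESeq2 359, no filter 98 and total counts 14, against 8 in the main test, and leaving out libraries gave 5 to 96 (96 without male replicate 3). Jam2 rested on counts of 45 to 101 per library.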
